A study of Mus musculus with 9 samples.

Results

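Lymphocyte antigen 6 (Ly6) proteins are small surface antigens of mouse blood cells, and 7 of their genes were followed here by name across 3 groups of mice: Ly6c1, Ly6c2, Ly6g, Ly6a, Ly6e, Ly6d and Ly6i. Of these 7, 6 had a row among the 23337 genes counted in every library, and all 6 passed the filter on low counts that left 12553 genes for testing. Ly6g was not analysed here.

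RNA was sequenced from CD11b+ bone marrow cells of 9 male C57BL/6 mice aged 3 to 6 weeks, 3 mice in each of 3 groups, with 1 library per mouse. PBS mice received vehicle, 100 µl by tail vein on days 1, 3 and 5. EnzR EV mice received on those days extracellular vesicles shed by enzalutamide-resistant CWR-R1 cells, a human prostate cancer line, at 10 µg of EV protein in 100 µl. EnzR EV + HDL NP mice received the same vesicles and, on days 0, 2 and 4, high-density lipoprotein-like nanoparticles, at 1 µM in 100 µl by the sample labels, whereas the study's methods give a higher concentration. No group received HDL NPs alone or vesicles of another cell, so in a difference from PBS the tumour source of the vesicles and vesicles as such cannot be told apart. Marrow was collected 24 h after the final injection. CD11b is the integrin chain by which myeloid cells were captured with a positive selection kit, and its gene, Itgam, stood between 1389 and 2006 CPM (counts scaled to library size, here with edgeR's TMM factors) in the 9 libraries.

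Ly6 proteins share a compact fold held by disulphide bonds, and most are tied to the outer membrane by a glycosylphosphatidylinositol (GPI) anchor. In marrow, the Ly6C antigen, encoded by Ly6c1 and Ly6c2, is used to tell inflammatory monocytes, and Ly6G is used to tell neutrophils. Ly6a encodes Sca-1, a marker of blood stem cells that interferons induce, Ly6e is a broadly expressed interferon-inducible member, and Ly6d marks early lymphoid progenitors committed to the B lineage.

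The 7 genes lie together on chromosome 15 (GRCm38, the mm10 assembly). Ly6d is at chr15:74762056-74763620, Ly6e at chr15:74955051-74959905 and Ly6i at chr15:74979534-74983430. Ly6a follows at chr15:74994877-74998031, 11.4 kb beyond Ly6i. Ly6c1 is at chr15:75044018-75048830, Ly6c2 at chr15:75108158-75111970 and Ly6g at chr15:75155240-75159126. Ly6e and Ly6g are on the plus strand and the other 5 on the minus strand.

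How far the reads can tell these genes apart depends on their sequences. Ly6c1 and Ly6c2 are near copies, with 387 of 396 coding bases identical (97.7%), and 64.6% of the 75-base windows of either coding sequence, the length of the reads, occurred in no other gene's transcripts. Their first 75 coding bases are shown because they hold 6 of the 9 substitutions, which are in capitals:
Ly6c1: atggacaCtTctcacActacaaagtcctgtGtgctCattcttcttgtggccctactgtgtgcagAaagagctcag
Ly6c2: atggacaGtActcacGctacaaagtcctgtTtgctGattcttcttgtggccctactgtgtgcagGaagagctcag

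Ly6a and Ly6i, the neighbours that were higher after EVs, are more distant copies, with 86.4% of 405 coding bases identical. Coding bases 211 to 285 of each are shown as the 75-base stretch with the most differences, 28 of 55 in all, in capitals:
Ly6a: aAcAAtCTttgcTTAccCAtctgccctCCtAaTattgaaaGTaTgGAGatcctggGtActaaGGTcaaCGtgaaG
Ly6i: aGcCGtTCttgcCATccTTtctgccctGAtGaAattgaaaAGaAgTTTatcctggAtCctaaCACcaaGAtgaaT

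Over all annotated transcripts, 75-base windows found in no other gene made up 81.0% for Ly6c1, 90.5% for Ly6c2, 93.7% for Ly6a, 99.5% for Ly6i and 100% for Ly6e and Ly6d. Counts of Ly6c1, and to a lesser degree of Ly6c2 and Ly6a, are therefore uncertain where reads fell in shared stretches.

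Libraries held between 2575776 and 18110561 counts. Rn45s, a ribosomal RNA gene, made up over 10% of 3 libraries, EnzR EVs replicate 1 (42.7%), PBS replicate 1 (20.3%) and EnzR EVs replicate 3 (14.2%), and at most 2.87% elsewhere. No gene of the 12553 passed an adjusted p of 0.05 by edgeR's quasi-likelihood test in any comparison, and limma's voom also called 0. At an unadjusted p under 0.05, edgeR had 436 genes for EnzR EVs against PBS, 268 for EnzR EVs + HDL NPs against PBS and 1325 between the EV groups. DESeq2 called 8, 7 and 1 genes at an adjusted p of 0.05 (0.0426%, 0.0372% and 0.00532% of those tested), none of them a Ly6 gene. With the replicate number as a block, edgeR called 1 gene for EnzR EVs against PBS, Ifit1, which is outside the Ly6 genes. Comparisons with PBS share the same 3 control mice.

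Levels per kilobase used a single annotated transcript per gene, of 822 bases for Ly6c2 and 2281 for Ly6e. On that scale, Ly6c2 was the most abundant of the 6 genes in all 9 libraries, at a mean of 463 ± 204 TMM CPM per kb (SD, n = 9). Ly6e came next at 121 ± 26.7 (SD, n = 9). Their ranges over libraries overlapped, from 123 to 725 for Ly6c2 and from 83.2 to 158 for Ly6e. Without scaling to length, Ly6e exceeded Ly6c2 in PBS replicate 1, EnzR EVs replicate 1 and EnzR EVs replicate 3. Ratios of Ly6c2 to Ly6e there were 0.671, 0.532 and 0.760. The other 4 were far lower, at means of 3.71 for Ly6a, 3.52 for Ly6i, 1.89 for Ly6c1 and 1.04 for Ly6d, and neighbours in this order did not differ beyond their spread. Counts of these 4 genes were small, from 2 to 118 in a library.

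**Figure D1:**
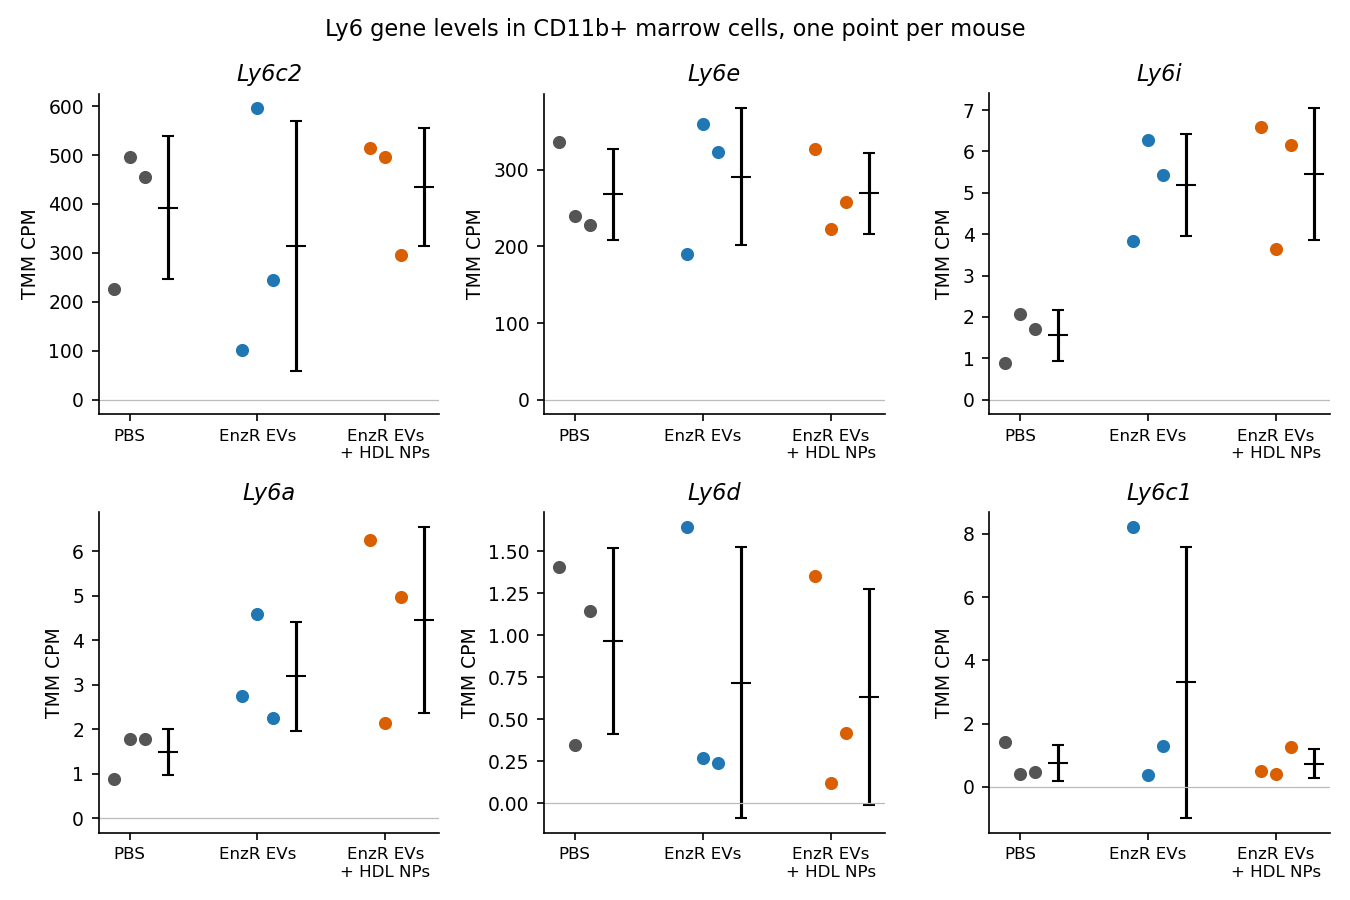
TMM CPM (y axis, a separate linear scale for each gene) of the 6 Ly6 genes by group, with 1 point per mouse and, beside the points, the mean and SD of 3 mice. The 6 EV-injected mice lie above the 3 PBS mice for Ly6i and Ly6a, and the groups overlap for Ly6c2, Ly6e, Ly6d and Ly6c1.

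Ly6i was the member with the clearest difference, higher in each of the 6 mice given EnzR EVs than in each PBS mouse. PBS mice had 0.880, 2.07 and 1.72 TMM CPM, EnzR EV mice 3.84, 6.28 and 5.44, and EnzR EV + HDL NP mice 6.59, 3.64 and 6.15. Both EV groups stood apart from PBS and overlapped each other. The group means were 1.56 ± 0.611 after PBS, 5.19 ± 1.24 after EnzR EVs and 5.46 ± 1.59 after EnzR EVs + HDL NPs (SD, n = 3 each).

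Against PBS, the log2 fold change of Ly6i was 1.72 for EnzR EVs (SE 0.377, adjusted p = 0.928 by edgeR) and 1.72 for EnzR EVs + HDL NPs (SE 0.365, adjusted p = 1.00 by edgeR). By unadjusted p (9.29e-04 and 7.06e-04 by edgeR) it ranked 9 and 5 of 12553 genes. Neither passed the adjusted threshold, and DESeq2 gave adjusted p-values of 0.0976 and 0.0835. Of all tested genes, 1.55% and 1.02% were higher at an unadjusted p under 0.05 in these comparisons, and 3.43% and 6.95% had every EV library above every PBS library.

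Over the 6 EV mice, Ly6i was 3.29-fold higher than in PBS mice (log2 fold change 1.72, SE 0.337, adjusted p = 0.668 by edgeR). Its unadjusted p by edgeR was 3.94e-04, and 0.765% of tested genes were higher at an unadjusted p under 0.05. DESeq2 called it, with an adjusted p of 0.0127, 1 of 14 genes it called (0.0745% of those tested). The two-sided exact permutation test of the 6 against 3 values gave p = 0.0238, the smallest this design allows, and 0.701% of all tested genes had all 6 EV libraries above all 3 PBS libraries. Between the EV groups the log2 fold change was 0.0062, with an interval of 2 SE from -0.70 to 0.71, and its sign changed with the setting.

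Counting error sets how firmly these values stand. PBS replicate 1 and EnzR EVs replicate 1, the smallest libraries, held 5 and 7 Ly6i reads, and exact Poisson 95% intervals, which cover counting error only, were 0.286 to 2.05 and 1.54 to 7.91 TMM CPM. The lowest EV library, EnzR EVs + HDL NPs replicate 2 at 3.64 TMM CPM, had 61 reads (2.78 to 4.67 TMM CPM). The highest PBS library, PBS replicate 2, had 36 (1.45 to 2.87). These intervals overlapped at their ends, and that of EnzR EVs replicate 1 also overlapped that of PBS replicate 2. Without PBS replicate 1, EnzR EVs replicate 1 and EnzR EVs replicate 3, the libraries rich in Rn45s, the log2 fold change of both EV groups against PBS was 1.63 for Ly6i, close to the value with all 9 libraries. EnzR EVs replicate 2 was then the only mouse left in its group.

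Ly6a, which encodes Sca-1, followed Ly6i at smaller size. PBS mice had 0.880, 1.78 and 1.77 TMM CPM, EnzR EV mice 2.74, 4.58 and 2.25, and EnzR EV + HDL NP mice 6.25, 2.15 and 4.96. Each EV mouse was above each PBS mouse, although the lowest EV value, from 36 reads (95% Poisson interval 1.50 to 2.97), and the highest PBS value, from 31 reads (1.21 to 2.53), were within counting error of each other. Log2 fold changes of Ly6a were 1.10 for EnzR EVs (SE 0.486, adjusted p = 0.928 by edgeR) and 1.51 for EnzR EVs + HDL NPs (SE 0.462, adjusted p = 1.00 by edgeR), both against PBS. Over both EV groups the log2 fold change was 1.31 (SE 0.425, adjusted p = 1.00 by edgeR, exact permutation p = 0.0238), and DESeq2 did not call Ly6a (adjusted p = 1.00). Between the EV groups it was 0.41 (2 SE interval -0.50 to 1.32).

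The levels of Ly6i and Ly6a ran together over the 9 libraries (Pearson r = 0.907 of log2 TMM CPM), a description over libraries that share treatment and depth, for genes that share a few 75-base windows. Genes most like Ly6a included Cxcl10, an interferon-induced chemokine (r = 0.969), and Cfb, complement factor B (r = 0.953). For Ly6i they were H2-T24, a non-classical class I histocompatibility gene (r = 0.945), BC006779, Ly6a and Gen1. H2-T24 stood at 94.8 ± 8.41 TMM CPM after PBS, 148 ± 1.94 after EnzR EVs and 153 ± 6.35 after EnzR EVs + HDL NPs (SD, n = 3 each).

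In a list of interferon-stimulated genes that holds no Ly6 gene, most values were higher in the EV groups, with no gene called by edgeR in the fit to all 9 libraries. With the replicate number as a block, edgeR called Ifit1 for EnzR EVs and for both EV groups against PBS. Without PBS replicate 1 and EnzR EVs replicate 1, it called Ifit1, Oasl2 and Rsad2 in the same comparisons. DESeq2 called 2 of the list's 51 tested genes for EnzR EVs, 1 for EnzR EVs + HDL NPs and 3 for both groups, where it called 0.0426%, 0.0372% and 0.0745% of the genes it tested. Of the 51, 49 had a positive log2 fold change for EnzR EVs and 51 for EnzR EVs + HDL NPs against PBS. Median log2 fold changes were 0.44 and 0.84, against -0.03 and -0.01 over all tested genes. Every library was higher than every PBS library for 7 of the 51 after EnzR EVs and for 44 after EnzR EVs + HDL NPs, where 3.43% and 6.95% of all tested genes did so.

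Mouse by mouse, the summed level of that list did not order the mice as Ly6i did. EnzR EVs replicate 1 had the lowest sum of all, 3180 TMM CPM, below the PBS range of 3257 to 3825, while its Ly6i level was above all PBS mice. The other 5 EV mice had sums from 4748 to 6056. The 3 EV mice with the most Ly6i (6.15 to 6.59 TMM CPM) also had the 3 highest sums.

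**Figure D2:**
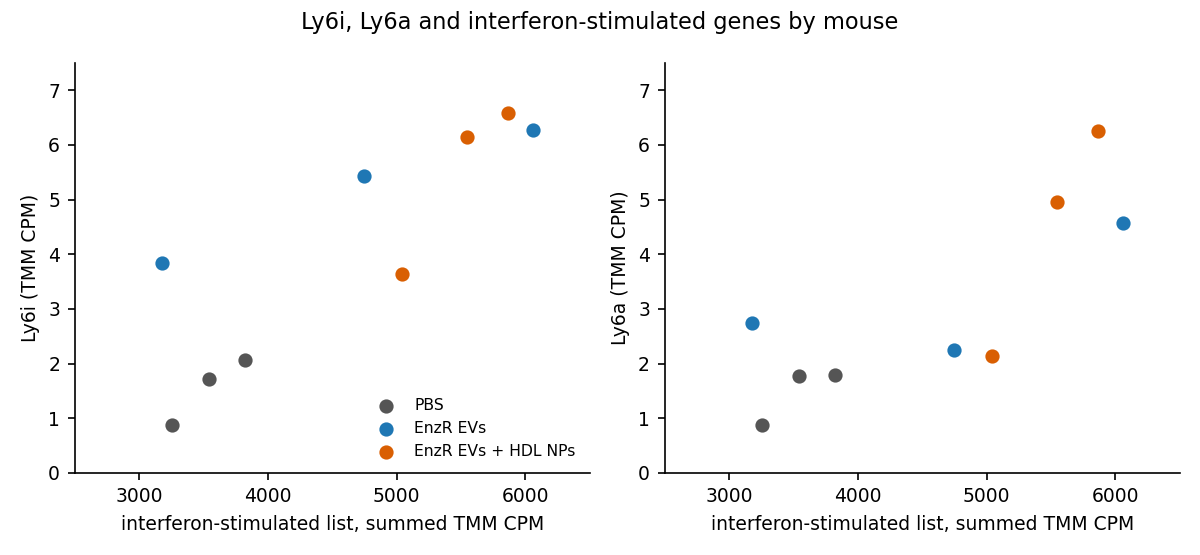
TMM CPM of Ly6i (left) and Ly6a (right) against the summed TMM CPM of 51 interferon-stimulated genes, 1 point per mouse on linear axes, with the x axis starting above 0. EV-injected mice sit to the right of the PBS mice, apart from EnzR EVs replicate 1, whose sum of 3180 is the lowest of the 9.

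Ly6c2, the main source of Ly6C transcripts here, did not separate the groups. PBS mice had 225, 497 and 455 TMM CPM, EnzR EV mice 101, 596 and 246, and EnzR EV + HDL NP mice 514, 495 and 296. The EnzR EV group held both the lowest and the highest of the 9 values. Log2 fold changes were -0.31 for EnzR EVs (SE 0.526, adjusted p = 0.935 by edgeR) and 0.15 for EnzR EVs + HDL NPs against PBS (SE 0.525, adjusted p = 1.00 by edgeR), and 0.46 between the EV groups (SE 0.527, adjusted p = 0.687 by edgeR). Intervals of 2 SE against PBS ran from -1.37 to 0.74 and from -0.90 to 1.20, so changes within these bounds were not excluded. In bulk RNA, fewer Ly6C-expressing cells and less Ly6c2 RNA per cell cannot be told apart.

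The spread of Ly6c2 ran with the ribosomal RNA share of the library. The 4 libraries with the lowest Ly6c2, EnzR EVs replicate 1, PBS replicate 1, EnzR EVs replicate 3 and EnzR EVs + HDL NPs replicate 3, were in that order the 4 with the most Rn45s (42.7%, 20.3%, 14.2% and 2.87%). The other 5 libraries, with 0.657% to 1.57% Rn45s, had 455 to 596 TMM CPM of Ly6c2. Without the 3 libraries richest in Rn45s the log2 fold change of Ly6c2 turned positive for EnzR EVs against PBS (0.33) and negative for EnzR EVs + HDL NPs against PBS (-0.13). That fit kept a single EnzR EV mouse, replicate 2, so the first of these values rests on that mouse. The part of RNA quality in these levels was not tested.

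Marker lists of neutrophils and monocytes, the marrow cells that carry Ly6C, also varied between libraries. The summed level of 18 late neutrophil genes ran from 34825 TMM CPM in EnzR EVs replicate 1 to 159306 in EnzR EVs + HDL NPs replicate 2, and that of 20 monocyte genes from 7113 in EnzR EVs replicate 1 to 16291 in the same HDL NP library. Neither list had a gene called by edgeR, which called 0 of all 12553 tested genes. The part of cell makeup in the level of Ly6c2 was not tested. For EnzR EVs against PBS, median log2 fold changes of the neutrophil and monocyte lists were -0.14 and -0.26. For EnzR EVs + HDL NPs against PBS they were 0.16 and -0.04. Genes most like Ly6c2 over the libraries included Med21 (r = 0.995), Timm8b and Cox7b, the last a subunit of cytochrome c oxidase.

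Ly6c1 behaved in the opposite way, at a few reads. Its counts ran from 7 to 18 in all 9 libraries, 90 in total beside 53006 of Ly6c2, although library totals differed from 2575776 to 18110561. Scaled to TMM CPM, PBS mice had 1.41, 0.403 and 0.458, EnzR EV mice 8.23, 0.373 and 1.30, and EnzR EV + HDL NP mice 0.507, 0.417 and 1.26. The 4 highest values came from the same 4 libraries that were lowest in Ly6c2, and the Pearson r of Ly6c1 with Ly6c2 was -0.984 (log2 TMM CPM, 9 libraries that share these depths).

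The log2 fold changes of Ly6c1 were 1.77 for EnzR EVs (SE 1.09, adjusted p = 0.928 by edgeR) and 0.14 for EnzR EVs + HDL NPs against PBS (SE 1.02, adjusted p = 1.00 by edgeR). With 1 library left out the first ran from 0.24 (without EnzR EVs replicate 1) to 2.62 (without EnzR EVs replicate 2). Without the 3 libraries rich in Rn45s it was -0.20, with EnzR EVs replicate 2 as the only EnzR EV mouse. Genes most like Ly6c1 included 2310035C23Rik (r = 0.993) and Kdm2a, a histone demethylase (r = 0.991). The EnzR EV group held both the lowest and the highest value of each. These were 69.0 and 195 TMM CPM for 2310035C23Rik, and 189 and 405 TMM CPM for Kdm2a.

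**Figure D3:**
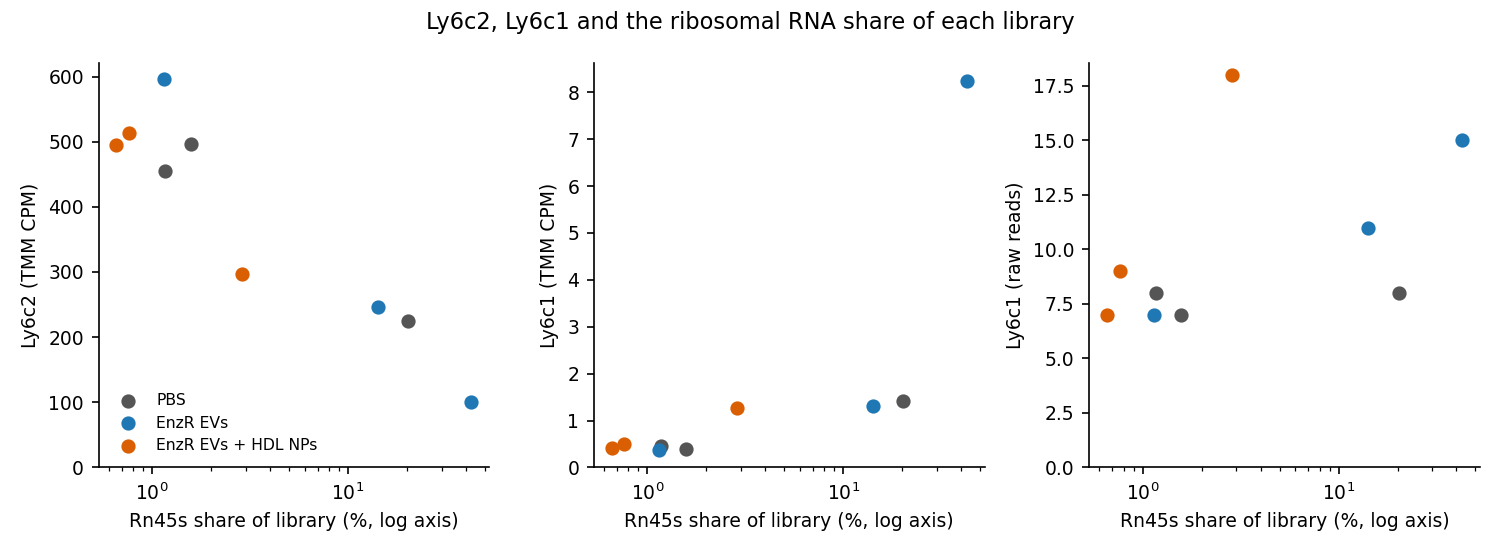
Ly6c2 in TMM CPM, Ly6c1 in TMM CPM and Ly6c1 in raw reads (y axes, linear, from 0) against the share of each library taken by Rn45s (x axis in percent, log scale), 1 point per mouse. Ly6c2 is lowest, at 101 TMM CPM, where the share is 42.7% and highest, at 596, where it is 1.15%, while Ly6c1 stays between 7 and 18 reads.

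Ly6e was the steadiest member, with a coefficient of variation of 22.1% over 9 mice, and its groups overlapped. PBS mice had 336, 240 and 228 TMM CPM, EnzR EV mice 190, 360 and 323, and EnzR EV + HDL NP mice 327, 223 and 258. The log2 fold change over all 9 libraries was 0.12 for EnzR EVs (SE 0.260, adjusted p = 0.950 by edgeR) and 0.0069 for EnzR EVs + HDL NPs against PBS (SE 0.260, adjusted p = 1.00 by edgeR). The value for EnzR EVs was larger without PBS replicate 1 and EnzR EVs replicate 1, at 0.55 (SE 0.188, adjusted p = 0.486 by edgeR). Without the 3 libraries rich in Rn45s it was 0.63, with EnzR EVs replicate 2 as the only EnzR EV mouse. The genes nearest to Ly6e were Dnmt1, the maintenance DNA methyltransferase (r = 0.969), Tdp1, Cep55, which acts in cell division, and Slc25a13.

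Ly6d was scarce, with 2 to 24 reads in a library. PBS mice had 1.41, 0.345 and 1.14 TMM CPM, EnzR EV mice 1.65, 0.266 and 0.236, and EnzR EV + HDL NP mice 1.35, 0.119 and 0.419. Values spread within each group over the range of the others. Log2 fold changes against PBS were -1.16 for EnzR EVs (SE 1.04, adjusted p = 0.928 by edgeR) and -0.49 for EnzR EVs + HDL NPs (SE 0.848, adjusted p = 1.00 by edgeR).

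Genes most like Ly6d were Flt3, a receptor of early progenitors (r = 0.948), Gramd1c, Serpinf1 and Cd79a, a chain of the B cell receptor. B lymphoid genes, as a list, had low levels in these CD11b+ cells, with sums of 9.99 to 46.6 TMM CPM over 14 genes. All 13 tested had a negative log2 fold change against PBS in both EV groups, and both comparisons used the same PBS mice. Medians of the 13 were -1.01 and -0.85, against -0.03 and -0.01 over all tested genes. None of the 13 was called by edgeR, which called 0 of all 12553 tested genes. The part of a changing number of B lineage cells in the level of Ly6d was not tested.

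Side by side, 2 of the 6 genes, Ly6i and Ly6a, were higher in every EV mouse than in every PBS mouse, and the groups of the other 4 overlapped. Of all tested genes, 0.701% were higher in every EV mouse. For Ly6a the lowest EV value and the highest PBS value were within counting error of each other. For Ly6i the Poisson intervals of the corresponding values overlapped at their ends. Ly6i and Ly6a lie in the stretch between Ly6e and Ly6c1, on the minus strand. Ly6e, 19.6 kb from Ly6i, had a log2 fold change of 0.07 for both EV groups against PBS, Ly6c2 one of -0.08 and Ly6c1 one of 0.96 (SE 0.929, adjusted p = 1.00 by edgeR). Between EnzR EVs + HDL NPs and EnzR EVs the values of all 6 genes overlapped. Of all tested genes, 8.99% had every HDL NP library above every EnzR EV library. The share with every HDL NP library below is not reported here.

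**Figure D4:**
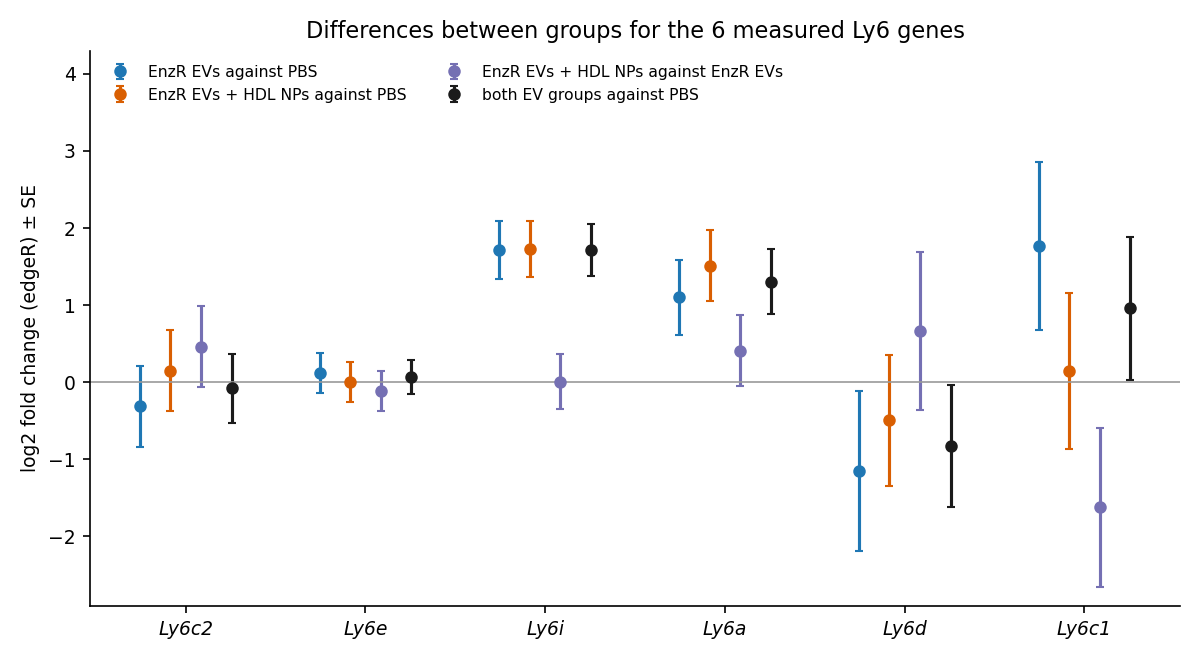
edgeR log2 fold change (y axis) of the 6 Ly6 genes in 4 comparisons, with bars of 1 SE from the fit to 9 libraries. Ly6i stands at 1.72 in all 3 comparisons with PBS and at 0.0062 between the EV groups, and the bars of Ly6d and Ly6c1 are the longest.

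**Figure D5:**
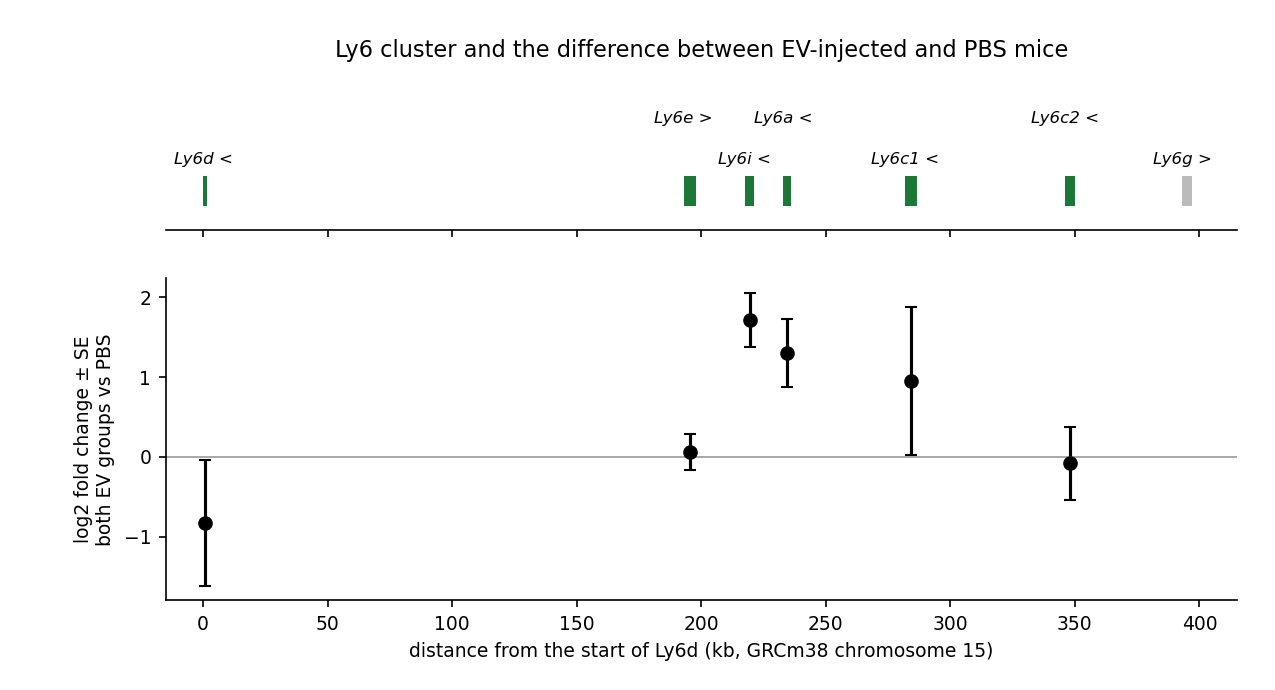
Upper panel, the 7 genes to scale by distance from the start of Ly6d in kb, with the strand as an arrowhead and Ly6g, not analysed here, in grey. Lower panel, log2 fold change of both EV groups against PBS with bars of 1 SE, in which Ly6i (1.72) and Ly6a (1.31) lie between Ly6e (0.07) and Ly6c1 (0.96), whose bar is long, with Ly6c2 (-0.08) beyond.

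Other Ly6 relatives, genes of the same protein family elsewhere in the genome or in the cluster, numbered 30 with a row, of which 7 passed the filter on low counts and 6 had 0 counts in every library. None of the 7 was called by edgeR, which called 0 of all 12553 tested genes. Median log2 fold changes of the 7 against PBS were -0.13 for EnzR EVs and -0.01 for EnzR EVs + HDL NPs. Cd177, a neutrophil surface protein, was the most abundant, at 2265 ± 144 TMM CPM after PBS, 2388 ± 335 after EnzR EVs and 2248 ± 479 after EnzR EVs + HDL NPs (SD, n = 3 each). Plaur, the urokinase receptor, stood at 269 ± 42.7, 207 ± 36.4 and 237 ± 55.3 TMM CPM in the same order. Ly6g5b, Lynx1, Lypd6, Lypd6b and 9030619P08Rik each stayed under 11.3 TMM CPM. None of the 7 had every EV mouse above every PBS mouse, where 0.701% of all tested genes did so. In the other direction, 9030619P08Rik was lower in every EnzR EV mouse than in every PBS mouse. Its means there were 0.506 and 0.924 TMM CPM, at few reads, with 0 in 1 EnzR EV library (adjusted p = 0.928 by edgeR). The share of all tested genes lower in every EnzR EV mouse is not reported here.

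Genes for building the GPI anchor showed no call between the groups. Of 28 such genes, all tested, edgeR called 0, as it called 0 of all 12553 tested genes. Median log2 fold changes against PBS were -0.02 for EnzR EVs and -0.11 for EnzR EVs + HDL NPs, against -0.03 and -0.01 over all tested genes. Between the EV groups, 1 of the 28 was higher and 4 were lower with HDL NPs at an unadjusted p under 0.05 by edgeR. There, 1325 of all 12553 tested genes had such a p.

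Promoter windows of 300 bases around the gene start, from RefSeq on GRCm38.p6, were at hand for Ly6c1, Ly6c2 and Ly6g. None held the core of an interferon-stimulated response element (GAAA, any 2 bases, then GAAA) or that of a STAT site (TTCNNNGAA) on either strand, letters that 3.44% and 8.3% of all 32851 such windows hold.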

How the data were processed

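CD11b+ marrow RNA from 9 mice was measured by stranded total RNA-seq with rRNA depletion (single-end reads of 75 bases). The values deposited by the authors are unnormalized read counts for each gene in each library, made, per the labels and methods, with cutadapt 1.13, STAR on mm10 and HTSeq 0.6.1p1 on a UCSC annotation; the strand setting of the counting is not given in the sources used here. Labels and methods name different RNA extraction reagents. Groups came from sample titles, and whether mice shared a batch is not stated.

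Tests used edgeR 4.0.16 (R 4.3.3) with TMM factors, the filter on low counts by group, a robust quasi-likelihood fit to all 9 libraries and Benjamini-Hochberg adjustment at 0.05. DESeq2 1.42.0 and voom of limma 3.58.1 were alternatives, with other normalizations, filters, subsets of libraries and a replicate block. Log2 TMM CPM used a prior count of 2. A two-sided exact permutation test was run on single values; with 3 mice on each side it cannot go below 0.10. The 9 libraries are separate mice by the study's methods. Scripts were tested on simulated data.

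The members and gene lists were chosen with earlier results of these data known. Beside the members, the genes named are relatives past the filter, the most abundant of other lists, the 4 genes most correlated with each member (some are not reported here), and Rn45s. Deviations from group means had r from 0.131 to 0.492 between EnzR EV and PBS mice with the same number. Between EnzR EV + HDL NP and PBS mice with the same number, r ran from -0.175 to 0.293. Mice of different groups and different numbers had r from -0.533 to 0.429. The main tests used no pairing, and the replicate block, an alternative, covered all 3 groups. Ifit1, Oasl2 and Rsad2 are named after their values were seen. Coding sequences and coordinates are from GENCODE M21. Total counts ran from 2575776 to 18110561, and 3 counts, the floor, correspond to 0.16 to 1.65 TMM CPM; intervals and floors cover counting error only.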

Additional observations from a re-analysis of the deposited data

How the results depend on the processing

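The 24 member results (6 genes, 4 comparisons) were computed under 23 settings, and of 528 values 484 kept direction and side of the threshold, 42 changed sign and 2 passed it. Both of the last were Ly6i over both EV groups by DESeq2 (1.74), also with its filtering tuned to 0.05, a setting chosen after seeing the data. Ly6i and Ly6a kept their sign against PBS in every setting, Ly6i from 1.52 to 1.98 and Ly6a from 0.64 to 1.85. With the replicate block, Ly6d between the EV groups was -0.11, Ly6i against PBS stayed at 1.72 for EnzR EVs, and no other member changed call. Ly6i between the EV groups was -0.11 by voom, -0.00048 with upper quartile factors, -0.0066 with DESeq2 size factors, -0.0034 without Rn45s, hemoglobin and mitochondrial genes, -0.014 in 6 libraries only, and -0.12 without PBS replicate 1 and EnzR EVs replicate 1. Those 2 libraries left out, Ly6c2 for EnzR EVs + HDL NPs against PBS was -0.13. Without TMM factors Ly6e between the EV groups was 0.078; that scaling moved the median of all genes by 0.21 there and by -0.15 for EnzR EVs against PBS. Leaving out the 3 Rn45s-rich libraries, a choice made after seeing the data, kept EnzR EVs replicate 2 as the only EnzR EV mouse. Values were then -0.20 and 0.91 for Ly6c1 and 0.33 and -0.46 for Ly6c2 (EnzR EVs against PBS, then between EV groups). Ly6c2 was -0.13 and 0.10 (HDL NPs, then both groups, against PBS). Ly6a was -0.043 and Ly6i -0.21 between EV groups, and Ly6e 0.63 and 0.41 (EnzR EVs, then both groups, against PBS). The cause was not tested.

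With 1 library left out, Ly6c2 ran from -1.14 to 0.10 (EnzR EVs against PBS), -0.13 to 0.37 (HDL NPs against PBS) and -0.49 to 0.14 (both). Ly6e ran from -0.035 to 0.36, -0.15 to 0.20, -0.35 to 0.039 (between EV groups) and -0.042 to 0.26 (both). Ly6c1 ran from -0.50 to 0.72 (HDL NPs against PBS), and between EV groups Ly6d from -0.63 to 1.29 and Ly6i from -0.16 to 0.21.

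Genes called in all, against 0, were 8, 7, 1 and 14 by DESeq2 in the order EnzR EVs, HDL NPs, between EV groups, both; 14, 2, 1 and 14 with tuned filtering; 1 (EnzR EVs) without a filter on low counts; 1 (between EV groups) in 6 libraries only; 1 (EnzR EVs) and 2 (both) with the block; 5, 0, 1 and 5 without the 2 smallest libraries; and 10, 0, 1 and 14 without the 3 Rn45s-rich ones. Leaving out 1 library gave 0 to 2, 0 to 0, 0 to 1 and 0 to 1. The planned ratio of Ly6c to Ly6g could not be computed, as Ly6g was not analysed here. Ly6c1, Ly6d, Ly6i and Ly6a have no value with at least 10 counts required in every library. Depth limits Ly6c1 and Ly6d most, with 90 and 76 reads in all.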
